A study of Homo sapiens with 16 samples.

Results

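Long coding genes were taken as the RefSeq coding transcripts that spanned at least 150 kb between their listed start and end. The rule found 640 of the 10304 transcripts in the PRO-seq tables, beside 8821 shorter coding and 843 noncoding transcripts. All 640 passed the expression filter in gene bodies, and 614 passed it near promoters. They carry 639 gene symbols, because FOXP1 has a pair of transcripts that share reads. Their lengths ran from 150.162 to 1502.1 kb with a median of 219.567 kb, against a median of 23.233 kb for the shorter coding transcripts. The study used Kasumi-1, an established acute myeloid leukaemia cell line with the RUNX1-RUNX1T1 fusion, in which both SMARCA5 alleles carried an FKBP12F36V tag. Cells were left untreated (0 h, 5 libraries) or received 500 nM of the degrader dTAG-47 for 2 h (3 libraries), 6 h (4 libraries) or 24 h (2 libraries). Every group therefore carried the tagged protein, and the 2 samples of the untagged parental line were not analysed here. The labels do not say whether the tagged line is 1 clone, nor whether replicates came from separate cultures, so p-values measure the spread between these libraries.

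SMARCA5 is the ATPase of ISWI chromatin remodelling complexes, which slide nucleosomes into evenly spaced arrays. dTAG-47 brings a protein with the FKBP12F36V tag to the cereblon ubiquitin ligase for degradation. PRO-seq lets engaged RNA polymerase add biotin-labelled nucleotides in isolated nuclei and so maps transcribing polymerase. Gene-body reads count polymerase in elongation, and promoter-proximal reads count mostly polymerase paused shortly after the start. A long gene takes polymerase longer to cross than a short one, and many long genes encode signalling enzymes, cytoskeletal proteins and regulators of transcription. Degradation acts on the protein, so reads over SMARCA5 are no check of the treatment, and protein is not part of the data used here. The cells were measured in bulk, so fewer transcribing cells and less transcription per cell cannot be told apart. Levels are CPM, read counts scaled to a library total of 1e6, and so relative to each library's own total. Gene positions are those listed in the files, on hg19.

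The promoters of 5 long genes on which the results below turn are shown as examples of a lasting fall (DTD1, DIAPH2), a fall followed by a rise (PRKCB), a lasting rise (AAK1) and a higher promoter-proximal signal (KCNIP1). They were chosen after the values were seen. Each window is RefSeq sequence of GRCh38.p14, 250 bases before and 50 after the transcript start, 5′ to 3′ on the gene's strand. The windows are chr20:18587804-18588103 (plus strand) for DTD1, chrX:96684592-96684891 (plus) for DIAPH2, chr16:23835733-23836032 (plus) for PRKCB, chr2:69643690-69643989 (minus) for AAK1 and chr5:170353237-170353536 (plus) for KCNIP1. Capitals mark the GC box letters GGGCGG and the ETS letters CCGGAA on either strand.
DTD1: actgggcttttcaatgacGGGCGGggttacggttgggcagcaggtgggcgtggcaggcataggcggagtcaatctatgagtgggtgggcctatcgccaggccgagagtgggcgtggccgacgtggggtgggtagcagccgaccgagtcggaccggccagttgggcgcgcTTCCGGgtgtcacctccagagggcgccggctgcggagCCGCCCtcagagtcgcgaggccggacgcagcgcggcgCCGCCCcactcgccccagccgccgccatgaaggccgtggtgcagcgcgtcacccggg
DIAPH2: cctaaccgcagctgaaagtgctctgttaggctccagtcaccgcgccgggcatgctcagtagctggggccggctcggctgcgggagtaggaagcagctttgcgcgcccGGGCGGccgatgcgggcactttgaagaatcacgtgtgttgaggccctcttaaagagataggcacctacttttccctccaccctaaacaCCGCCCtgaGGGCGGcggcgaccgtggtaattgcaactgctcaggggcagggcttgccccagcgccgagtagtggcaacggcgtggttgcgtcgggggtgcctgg
PRKCB: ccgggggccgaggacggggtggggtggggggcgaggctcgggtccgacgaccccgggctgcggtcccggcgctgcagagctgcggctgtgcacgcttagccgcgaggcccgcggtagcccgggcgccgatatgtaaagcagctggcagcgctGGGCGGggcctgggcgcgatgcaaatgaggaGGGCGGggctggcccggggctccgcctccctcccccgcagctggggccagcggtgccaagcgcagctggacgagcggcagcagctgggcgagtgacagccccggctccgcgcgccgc
AAK1: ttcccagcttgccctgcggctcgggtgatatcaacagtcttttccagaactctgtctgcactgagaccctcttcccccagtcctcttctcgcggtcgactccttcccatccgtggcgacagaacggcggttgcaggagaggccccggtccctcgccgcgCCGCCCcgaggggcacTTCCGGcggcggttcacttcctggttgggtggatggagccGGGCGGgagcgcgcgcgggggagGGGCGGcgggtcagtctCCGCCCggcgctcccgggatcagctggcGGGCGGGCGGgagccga
KCNIP1: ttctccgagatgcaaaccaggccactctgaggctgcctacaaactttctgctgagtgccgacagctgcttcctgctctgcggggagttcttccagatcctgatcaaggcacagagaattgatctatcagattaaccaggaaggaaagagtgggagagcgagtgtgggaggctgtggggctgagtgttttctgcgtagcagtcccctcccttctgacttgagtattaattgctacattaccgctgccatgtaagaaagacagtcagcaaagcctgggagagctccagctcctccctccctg
The DTD1 window held 3 GC boxes and 1 ETS match, DIAPH2 held 3 GC boxes, PRKCB 2, AAK1 6 with 1 ETS match, and KCNIP1 none of either. GC content was 72% in DTD1, 64.3% in DIAPH2, 77.7% in PRKCB, 70.7% in AAK1 and 53% in KCNIP1, and KCNIP1 had 6 CpG dinucleotides where the other windows had 25 to 38. Such windows were kept for 429 long genes and 4922 shorter coding genes, where the transcript length fitted within 2%. That tolerance grows with length, and at long genes it exceeds the 300 bases of the window. Placement at the start is therefore less certain for long genes, which bears on the shares below. The ETS letters were present in 20.3% of the long and 34.3% of the shorter gene windows, and the letters CCAAT in 29.8% and 39.2%. GC boxes were present in 75.8% of the long and 74.3% of the shorter gene windows, TATAAA in 4.20% and 5.04%, and the RUNX letters TGTGGT in 9.32% and 8.41%. The median GC content was 69% in long and 66% in shorter gene windows. Motifs were searched on both strands, matches that overlap were each counted, and a match describes letters only.

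Before treatment, long genes were transcribed at a lower density but held more reads each. Their median gene-body level over the untreated libraries was 1.11 CPM per kb, ranging from 0.243 to 16.2, against 2.04 CPM per kb for shorter coding genes. Over the whole gene body that came to a median of 277 CPM against 48.5 CPM. The densest were CDK6, the G1 cyclin-dependent kinase, at 16.2 CPM per kb, RUNX1, the haematopoietic transcription factor, at 13.8, and RNF220, a ubiquitin ligase, at 11.5. Near promoters the long genes had a median of 35.8 CPM, and shorter coding genes 44.0 CPM. Since density and total differ in opposite directions, long genes were set beside shorter coding genes of equal reads per kb and, separately, of equal total reads, each matched in 5 classes of equal size at 0 h.

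The libraries fall into 3 runs by a code in the deposited column names, whose meaning is not given. Run 1 holds 2 untreated libraries and 1 of 2 h, run 2 holds 2 of each time, and run 3 holds 1 untreated library and 2 of 6 h. Gene-body totals ran from 11182894 to 34209362 reads and promoter-proximal totals from 1667950 to 7171601. The runs stood apart among untreated libraries, so the model carries a run term and values within runs are given. Of 12 fixed markers of Kasumi-1 cells 7 were listed (RUNX1, KIT, CD34, CD33, MPO, SPI1 and CEBPA). RUNX1T1, CD38, PRTN3, ELANE and LYZ were not. Also listed were 1 of 5 erythroid markers (KLF1, 19.8 CPM), 0 of 6 lymphoid and 1 of 6 stromal or epithelial markers (EPCAM, 29.6 CPM). The Kasumi-1 markers held 5.44 CPM (CEBPA) to 3799 CPM (KIT) untreated, and CEBPA and CD33 (27.6 CPM) lay below EPCAM.

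After 2 h of dTAG-47, gene-body transcription fell at 326 of the 640 long genes (50.9%) and rose at 35 (5.47%). Without the run term in the model 20.8% fell and 1.09% rose, and with only the 2 groups in it 31.6% and 1.88%. Over all 10304 transcripts, 18.9% fell and 19.7% rose, 38.6% in all (edgeR quasi-likelihood test, Benjamini-Hochberg adjusted p under 0.05). The changes were small. The median long gene changed by -0.19 on the log2 scale, with quartiles of -0.32 and -0.03, and 506 of the 640 were lower. Among the long genes that passed the test the median size was 0.31, and 2 changed more than 2-fold. Shorter coding genes had a median of 0.03, with 1525 falls (17.3%) and 1799 rises. Shorter coding genes of equal reads per kb fell in 15.1% and rose in 23.2%, with a median of 0.06. Those of equal total reads were much closer to the long genes: 44.6% fell and 6.17% rose, with a median of -0.16. Matching on total reads also chose longer genes, with median lengths of 33.2, 59.5, 80.3, 88.7 and 92.0 kb from the lowest class to the highest. The highest class held 79 of them. Genes of equal reads per kb had a median length of 25.5 kb. Length and total reads therefore cannot be told apart by this matching. The difference between the medians of long and matched genes was thus -0.25 when matched on reads per kb and -0.03 when matched on total reads.

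**Figure D1:**
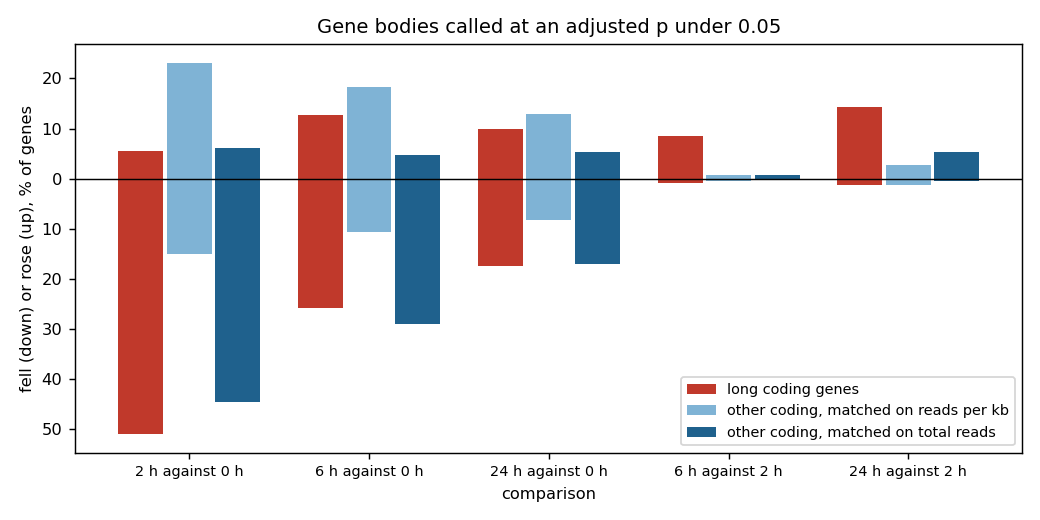
Share of genes (%) that fell (drawn downward) or rose (drawn upward) in gene bodies in 5 comparisons, for long coding genes and for shorter coding genes matched on reads per kb or on total reads. At 2 h the long genes (50.9% fell) resemble the genes matched on total reads (44.6%) more than those matched on reads per kb (15.1%).

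The drop in the long genes' share of reads was visible library by library. Long genes took 24.8% and 23.6% of gene-body reads in the untreated libraries of run 1, 24.1% in both of run 2 and 22.7% in the one of run 3. At 2 h they took 21.4% in run 1 and 22.9% and 22.4% in run 2, so within each run every 2 h library lay below its untreated libraries. At 6 h the shares were 23.5% in both libraries of run 2 and 21.4% and 22.4% in run 3, and at 24 h 23.5% and 23.7%. Across runs the groups overlapped, since the untreated library of run 3 lay below a 2 h library of run 2. Within run 1 the median change at 2 h was -0.29 and within run 2 -0.12, with 505 and 498 of 640 genes lower. Genes matched on total reads had medians of -0.25 and -0.11 in those runs, and genes matched on reads per kb 0.10 and 0.04. The fall in run 1 rests on a single 2 h library, and without it 31.2% of long genes fell. Of 43 long genes that overlap another listed transcript 22 fell, and of the 597 that do not 304 fell.

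**Figure D2:**
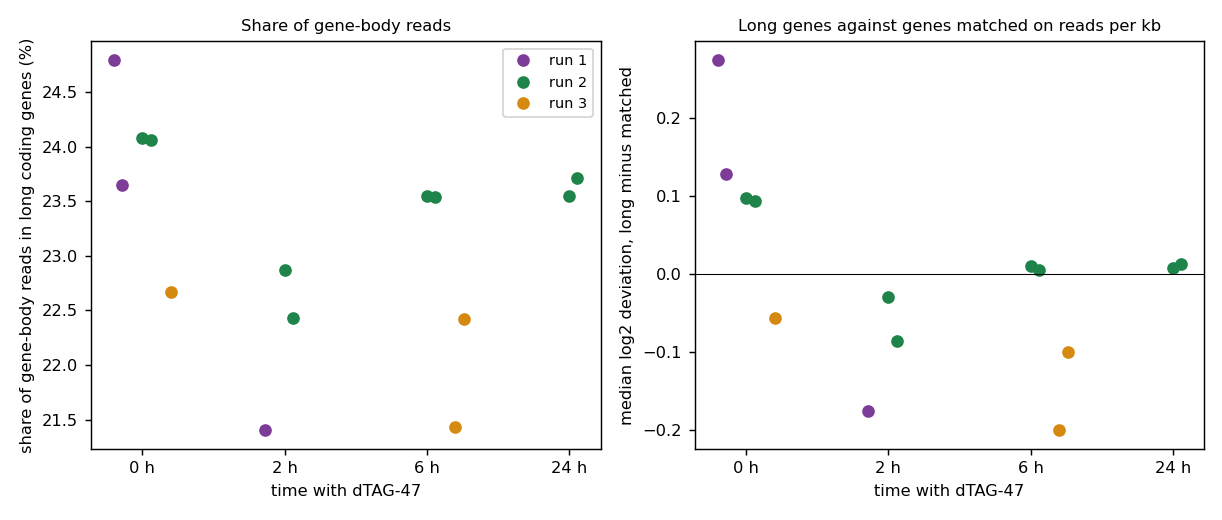
Left, share of gene-body reads in long coding genes (%) in each library, by time with dTAG-47. Right, median log2 deviation of long genes minus that of genes matched on reads per kb. Each point is 1 library, coloured by run. Within runs 1 and 2, the 2 h libraries lie below the untreated ones in both panels, and the untreated libraries have an SD of 0.118 on the right.

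The share of falls grew with length up to the 150 kb threshold and was level above it. At 2 h the median change was 0.24 for 2166 coding genes under 10 kb, 0.07 for 10 to 30 kb, -0.07 for 30 to 75 kb and -0.13 for 75 to 150 kb, where 36.9% fell. Among long genes the median was -0.20 for the 260 of 150 to 200 kb, -0.20 for the 226 of 200 to 300 kb, -0.15 for the 114 of 300 to 500 kb and -0.19 for the 40 longer ones. In these classes 50%, 52.2%, 50.9% and 50% fell. Across the 640 genes the change at 2 h had a Spearman correlation of -0.0027 with length and -0.33 with reads per kb at 0 h, over genes that share libraries and whose 0 h level enters both density and change. Across all 9461 coding genes the same correlations were -0.41 with length and -0.10 with reads per kb. The genes just inside the threshold, KIF21A, MEF2A and KANSL1L (150.162 to 150.616 kb), had 2 h changes of -0.43, -0.20 and -0.14, and those just outside, EXT2, USP25 and MPRIP, -0.11, -0.38 and -0.03.

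**Figure D3:**
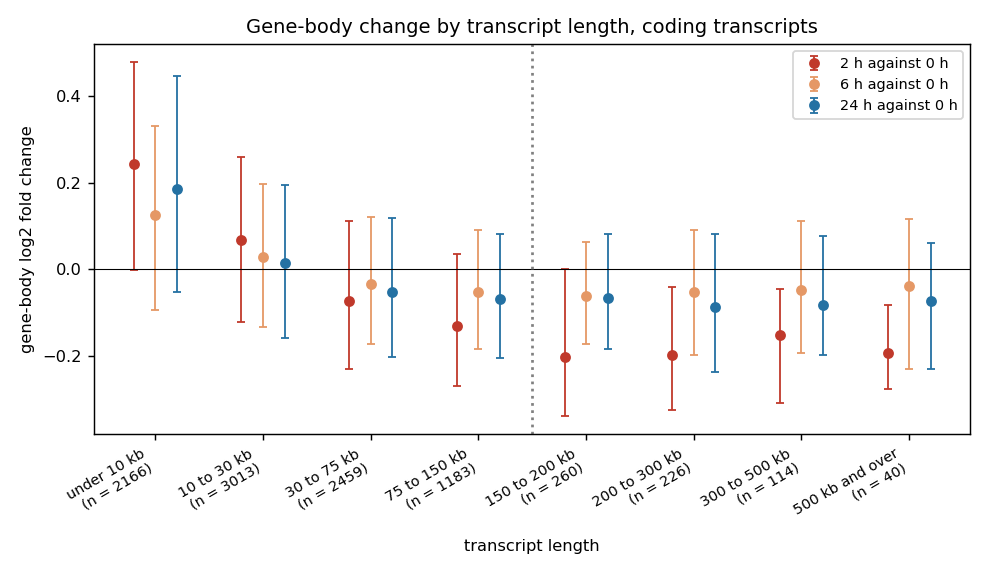
Median log2 change in gene-body reads (points) with quartiles (bars) by length class of coding genes at 2, 6 and 24 h against 0 h. The dotted line marks 150 kb. At 2 h the medians go from 0.24 under 10 kb to between -0.15 and -0.20 above 150 kb.

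The long genes were also taken by density, where the 0 h level that sets the classes enters the change as well. When the 640 genes were cut into 5 equal classes by reads per kb, in the lowest class 33 of 128 genes fell at 2 h (25.8%) and 15.6% rose, with a median of -0.05. In the highest class 97 of 128 fell (75.8%), with a median of -0.29. In 5 classes of rising total reads, the 2 h medians of long genes were -0.06, -0.15, -0.20, -0.21 and -0.29, and those of shorter coding genes in the same classes -0.02, -0.12, -0.17, -0.21 and -0.26. More reads also make a change of a given size easier to call, which bears on the counts and not on the medians.

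**Figure D4:**
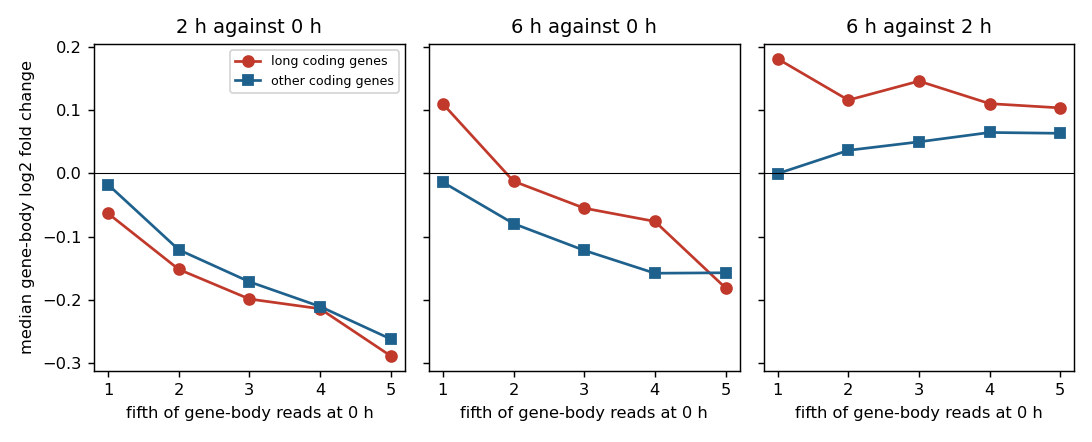
Median log2 change of long and shorter coding genes by class of total gene-body reads at 0 h, 5 classes set on the long genes, for 2 h against 0 h, 6 h against 0 h and 6 h against 2 h. At 2 h the lines lie close to each other in every class, and at 6 h against 2 h the long genes lie above.

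By 6 h fewer long genes were below their untreated level. Gene-body reads fell at 165 (25.8%) and rose at 81 (12.7%), where 13.4% of all transcripts fell and 13.5% rose, 26.8% in all (edgeR quasi-likelihood test, adjusted p under 0.05). The median was -0.06, and 394 of 640 were lower. Shorter genes of equal reads per kb had a median of 0.07 with 10.5% falls, and those of equal total reads -0.11 with 28.9% falls, so the long genes lay below the former and above the latter. Within runs 2 and 3 the medians of long genes were -0.05 and -0.03, and those of genes of equal total reads -0.10 in both. At 24 h, measured in run 2 alone, 112 long genes fell (17.5%) and 64 rose (10%), against 9.08% and 10.8% of all transcripts (19.8% in either direction), with a median of -0.08. Genes of equal total reads had a median of -0.10 at 24 h, with 17.1% falls. Without one or the other 24 h library 7.03% or 6.88% of long genes fell, and without either 6 h library of run 2 the share that fell at 6 h was 15.3%. At all 3 times alike, 90 long genes fell (14.1%) and 15 rose (2.34%). Of all transcripts 6.12% fell and 5.81% rose at all 3 times, and of shorter coding genes of equal total reads 14% and 1.86%.

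The change from 2 h to later times was itself tested. From 2 h to 6 h, 54 long genes rose and 6 fell, where 1.01% of all transcripts rose and 0.573% fell, 1.58% in all. The median of long genes was 0.13. Among shorter coding genes 47 of 8821 rose and 45 fell, with a median of -0.01, and those of equal total reads rose in 0.84% with a median of 0.05. The share that rose was 1.61% for genes of 75 to 150 kb, 5.38% for 150 to 200 kb, 7.96% for 200 to 300 kb, 15.8% for 300 to 500 kb and 10% above that. In the 5 classes of total reads the medians of long genes were 0.18, 0.12, 0.15, 0.11 and 0.10, and those of shorter genes 0.00, 0.04, 0.05, 0.06 and 0.06. From 2 h to 24 h, 92 long genes rose and 8 fell, against 3.03% and 1.05% of all transcripts (4.08% in all), with a median of 0.10 and 5.37% rises in genes of equal total reads. The 6 h calls depended on the run term and on 1 library: without the term 0 long genes passed, and without library B of run 2 at 6 h 0 passed, while DESeq2 with the term called 17.7% of long genes. In run 2 alone 231 rose and 52 fell. The share over all transcripts in that fit is not given, so these counts cannot be set against the shares above. Of the changes from 2 h to 24 h, 2.5% of long genes passed without the term.

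DTD1 and GBE1 had large falls at all 3 times. DTD1 (chr20:18568556-18744560, hg19), a D-aminoacyl-tRNA deacylase, held 174 and 169 CPM in the untreated libraries of run 1, 156 and 152 in run 2 and 140 in run 3. It held 66.4, 80.2 and 84.9 CPM at 2 h, 78.4, 70.3, 67.2 and 65.4 at 6 h, and 78.4 and 72.0 at 24 h. No treated library reached the lowest untreated one. The log2 change was -1.08 ± 0.09 (SE) at 2 h, -1.12 ± 0.09 at 6 h and -1.12 ± 0.11 at 24 h, with adjusted p of 1.2e-05, 4.37e-06 and 3.74e-05 (edgeR quasi-likelihood test, Benjamini-Hochberg). GBE1 (chr3:81538850-81810950, hg19), the glycogen branching enzyme, held 387 to 609 CPM untreated with a median of 560 CPM, 277, 304 and 278 at 2 h, 349, 334, 303 and 310 at 6 h, and 260 and 280 at 24 h. Its groups did not overlap either, and it fell by 0.92, 0.58 and 1.001 on the log2 scale (adjusted p 2.93e-05, 0.000491 and 8.17e-05, edgeR). Both genes held these calls under every alternative tried.

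AAK1 (chr2:69685127-69870977, hg19), a kinase of clathrin adaptors, was among the 15 long genes that rose at all 3 times. Its gene body held 64.0 and 62.7 CPM untreated in run 1, 74.1 and 70.1 in run 2 and 66.1 in run 3. At 2 h it held 107, 110 and 104 CPM, at 6 h 139, 138, 116 and 131, and at 24 h 132 and 128. Every treated library lay above every untreated one, and the change was 0.64 ± 0.06, 0.95 ± 0.07 and 0.88 ± 0.08 (SE, adjusted p 3.63e-05, 1.76e-06 and 2.41e-05, edgeR). Near its promoter the 5 untreated libraries held 14 to 18.2 CPM and the 3 libraries of 2 h 15.0, 18.8 and 23.1, and no promoter-proximal change passed the test (0.18, 0.38 and -0.09). ANO10, of the anoctamin membrane protein family, rose by 0.28, 0.56 and 0.58 on the log2 scale. PITPNC1, a phosphatidylinositol transfer protein, rose by 0.34, 0.57 and 0.44. CNNM2, a magnesium transport protein, rose by 0.25, 0.35 and 0.45, the first of these not without the run term. MARCH3, a membrane-bound ubiquitin ligase, rose by 0.74, 0.62 and 0.65, and none of its 3 rises passed without the run term. Its 24 h rise also failed without either untreated library of run 2, where it was 0.51, or without either 24 h library, where it was 0.66 and 0.64.

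**Figure D5:**
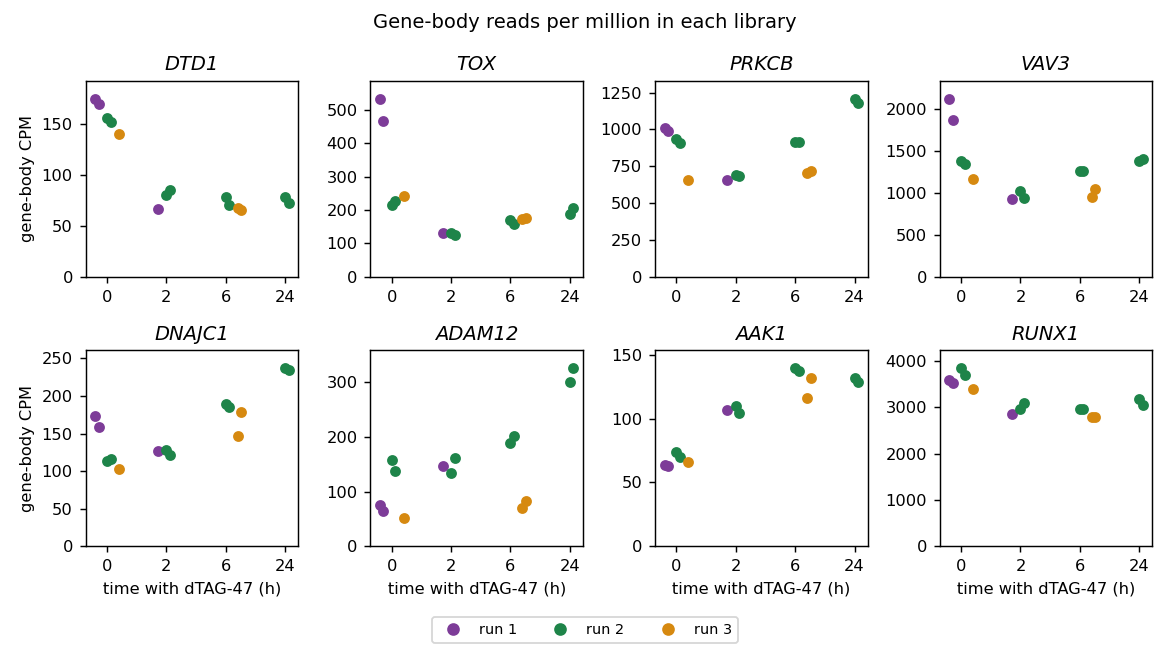
Gene-body CPM of 8 long genes in each library, by time with dTAG-47, coloured by run. DTD1 falls and AAK1 rises with no overlap between untreated and treated libraries, PRKCB is lowest at 2 h and highest at 24 h in run 2, and TOX and ADAM12 differ between runs among untreated libraries.

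Other long genes fell at 2 h and were near or above their untreated level at 24 h, whereas PRKCQ stayed lower. PRKCB (chr16:23847300-24231932, hg19), a conventional protein kinase C, held 1011 and 988 CPM untreated in run 1, 933 and 910 in run 2 and 659 in run 3. At 2 h it held 656, 688 and 687 CPM, at 6 h 917 in both libraries of run 2 and 704 and 719 in run 3, and at 24 h 1207 and 1179. Within runs the 2 h libraries were lowest, and both 24 h libraries lay above every untreated one. The change was -0.48 ± 0.05 at 2 h (adjusted p 4.96e-05), 0.01 at 6 h (0.867) and 0.36 ± 0.06 at 24 h (0.00155), and from 2 h to 24 h it was 0.84 (3.39e-05, edgeR). The 24 h rise did not pass without the run term (adjusted p 0.0802). PRKCH, another protein kinase C, changed by -0.47, -0.06 and 0.27, and its rise from 2 h to 24 h was 0.74, which did not pass without the run term (adjusted p 0.156). The 24 h value of PRKCH failed the test in 5 of 24 alternatives, among them those without library B of run 2 at 0 h or without either 24 h library, where it was 0.24 to 0.28, and without the run term it was 0.05 (adjusted p 0.851). PRKCQ, of the same family, fell by 0.72, 0.64 and 0.62 at the 3 times, and its changes from 2 h did not pass (0.08 and 0.10).

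VAV3 (chr1:108113782-108507545, hg19), a guanine nucleotide exchange factor, held 2117 and 1861 CPM untreated in run 1, 1373 and 1348 in run 2 and 1169 in run 3. At 2 h it held 921, 1018 and 943 CPM, at 6 h 1259, 1260, 951 and 1049, and at 24 h 1383 and 1397. The 2 h libraries lay below all untreated ones, and the 24 h libraries overlapped them. The changes were -0.72 ± 0.10 (adjusted p 0.000268), -0.23 (0.0933) and -0.10 (0.607, edgeR). ZHX2, a zinc finger and homeobox repressor, held 97.6 to 113 CPM untreated, 51.0, 63.9 and 67.6 at 2 h, 82.2 to 87.4 at 6 h, and 102 and 97.2 at 24 h. ZHX2 fell by 0.83 at 2 h and was also called lower at 6 h, at -0.36 to -0.24 over the alternatives. The 6 h call was lost in 4 of 24 alternatives. Its rise from 2 h to 24 h was 0.70 (adjusted p 0.00258, edgeR), with the 24 h and untreated libraries overlapping.

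TOX (chr8:59717977-60031767, hg19), an HMG-box factor of lymphoid development, showed how far the runs can differ. It held 533 and 466 CPM untreated in run 1 and 214, 226 and 242 in runs 2 and 3, then 131, 133 and 126 at 2 h, 169, 159, 174 and 177 at 6 h, and 188 and 207 at 24 h. All treated libraries lay below all untreated ones, but the change at 24 h against 0 h did not pass the test. The 2 h change was -1.19 ± 0.17 (adjusted p 0.000341, edgeR), and it was -1.92 within run 1 and -0.77 within run 2. The 6 h change of -0.58 (0.02) no longer passed without the untreated library of run 3 or without either 6 h library of run 2, where it was between -0.66 and -0.54.

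Rises that came late were led by DNAJC1 (chr10:22045477-22292650, hg19), a DnaJ co-chaperone of the endoplasmic reticulum. Untreated libraries held 173 and 159 CPM in run 1, 114 and 116 in run 2 and 103 in run 3. At 2 h it held 126, 128 and 121 CPM, at 6 h 190, 186, 147 and 179, and at 24 h 237 and 234. The 24 h libraries lay above all others, while 2 h and untreated libraries overlapped. The change was -0.08 at 2 h (adjusted p 0.524), 0.62 ± 0.10 at 6 h (0.000529) and 0.94 ± 0.11 at 24 h (0.000171), and 1.02 from 2 h to 24 h (0.000564, edgeR). PLXNA4, a semaphorin co-receptor, held 213 and 199 CPM untreated in run 2 and 384 ± 11.6 (SD, n = 2) at 24 h, but 57.5, 64.9 and 48.9 untreated in the other runs. Its changes were 0.05, 0.46 and 1.03, the last 2 passing only with the run term.

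ADAM12 (chr10:127702902-128077127, hg19), a membrane metalloprotease, had the largest rise at 24 h, 1.29 ± 0.19 (adjusted p 0.000704, edgeR). It held 158 and 137 CPM untreated in run 2, 75.3, 64.4 and 51.2 in the other runs, and 301 and 326 at 24 h. At 2 h it held 146 CPM in run 1 and 133 and 162 in run 2, so the 2 h change of 0.45 was 1.07 within run 1 and 0.00 within run 2. It failed the test in 15 of 24 alternatives and changed sign in 1, and without the 2 h library of run 1 it was 0.03 with an adjusted p of 0.87.

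The gene lists below are read against the shares of all long genes that fell at 2, 6 and 24 h, 50.9%, 25.8% and 17.5%, and that rose, 5.47%, 12.7% and 10%. No list was tested against the other long genes, and a gene can stand on more than 1 list. Of 15 long transcription factors of blood and development, counting both FOXP1 transcripts, 12 fell (80%) and 0 rose at 2 h, with a median of -0.37. At 6 h 7 fell and at 24 h 2, with medians of -0.17 and -0.13, beside -0.06 and -0.08 for all long genes. RUNX1 (chr21:36160098-36421595, hg19) held 3395 to 3846 CPM untreated with a median of 3582, then 2860, 2966 and 3099 at 2 h, 2957, 2963, 2796 and 2798 at 6 h, and 3122 ± 97.1 (SD, n = 2) at 24 h. All treated libraries lay below all untreated ones, and RUNX1 fell by 0.31 ± 0.04, 0.32 and 0.26 ± 0.05 (adjusted p 0.000135, 7.96e-05 and 0.00228, edgeR), the last not passing without the run term (0.0688). Reads there cover the gene and any fusion transcript from its promoter alike. ETV6, an ETS-family repressor, fell by 0.45 and 0.39 at 2 h and 6 h and had a value of -0.19 at 24 h. FOXP1, a forkhead repressor, fell by 0.43 at 2 h in one transcript and 0.44 in the other, both only with the run term. Both were also called lower at 6 h, and a single transcript at 24 h, where the call was lost in 12 of 24 alternatives.

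Among chromatin regulators and corepressors 25 of 38 long members fell at 2 h (65.8%, beside 50.9% of all long genes) and 2 rose, CREBBP and CBFA2T2, named after their values were seen. At 6 h 13 fell and 4 rose, at 24 h 6 fell and 4 rose, and the medians were -0.26, -0.12 and -0.09. JARID2, a subunit of Polycomb repressive complex 2, fell by 0.53 at 2 h and 0.31 at 6 h. PHF20, a methyl-lysine reader, fell by 0.44 and 0.46, and CHD6, a remodeller of another family than SMARCA5, by 0.46 at 2 h. JARID2 and PHF20 were also called lower at 24 h, at -0.31 to -0.19 and -0.35 to -0.27 over the alternatives. Those calls were lost in 9 and 1 of 24 alternatives. CHD6 was called lower at 6 h as well, at -0.40 to -0.20, a call lost in 4 of 24. SFMBT2, a Polycomb-group protein, fell by 0.43 and 0.33 at 2 h and 6 h. AFF1, a scaffold of the super elongation complex, changed by -0.40 at 2 h, 0.03 at 6 h and 0.06 at 24 h, and it rose by 0.43 from 2 h to 6 h and by 0.46 from 2 h to 24 h. The 3 called changes of AFF1 all failed the test without the run term. The one from 2 h to 6 h also failed without library B of run 2 at 2 h (0.44) or at 6 h (0.43).

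RSF1, the partner of SMARCA5 in the RSF complex, was long (chr11:77377274-77531880, hg19) and in no list. Its gene body held 316 to 378 CPM untreated with a median of 338, and 278, 297 and 292 at 2 h, with a fall of 0.26 (adjusted p 0.00403, edgeR) under every alternative. The gene body was also called lower at 6 h and 24 h, at -0.24 to -0.13 and -0.25 to -0.16 over the alternatives. Those calls were lost in 5 and 13 of 24 alternatives. Near its promoter the untreated libraries held 14, 7.77, 9.57, 10.6 and 9.82 CPM, the 2 h libraries 10.1, 15.2 and 9.39, the 6 h libraries 20.1, 22.4, 52.5 and 39.3, and the 24 h libraries 28.6 and 31.2. From 6 h on every library lay above every untreated one. The promoter-proximal change was 0.25 at 2 h (0.672), 1.46 ± 0.30 at 6 h (0.0126) and 1.71 ± 0.33 at 24 h (0.0142). At 6 h it was 1.02 and no longer passed without the untreated library of run 3, nor without library B of run 2 at 6 h, and at 24 h it failed without library A of run 2 at 0 h or without either 24 h library. The 24 h change also failed without the run term.

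Of 35 long kinases, phosphatases and second messenger enzymes 21 fell at 2 h (60%, beside 50.9% of all long genes) and 0 rose. The counts were 5 falls and 3 rises at 6 h and 3 falls and 6 rises at 24 h, and the medians were -0.22, -0.05 and 0.01. From 2 h to 24 h 9 rose (25.7%), beside 14.4% of all long genes and 3.03% of all transcripts. Similar shares rose among the small GTPase regulators (26.5%) and the transcription factors (26.7%), and 0 to 21.4% in the other lists. TAOK3, a STE20-family kinase, fell by 0.54 at 2 h and 0.35 at 6 h. SIK3, a salt-inducible kinase on no list, fell by 0.74 at 2 h and 0.40 at 6 h. TAOK3 and SIK3 were also called lower at 24 h, at -0.42 to -0.29 and -0.41 to -0.25 over the alternatives. Those calls were lost in 2 and 4 of 24 alternatives. CDK6 fell by 0.42 at 2 h, not passing without the run term, and had values of -0.20 and -0.09 later. Of 34 long small GTPase regulators 22 fell at 2 h (64.7%), 10 at 6 h and 8 at 24 h, and 0, 3 and 2 rose, with medians of -0.23, -0.08 and -0.09. DENND5B, a Rab exchange factor, fell by 0.91 at 2 h, ITSN2, an endocytic scaffold with exchange activity, by 0.41 at 2 h and 0.26 at 6 h, and TBC1D4, a Rab GTPase activator, by 0.41 and 0.42. These genes were also called lower at 24 h. Over the alternatives the 24 h values were -0.77 to -0.50 for DENND5B, -0.37 to -0.30 for ITSN2 and -0.43 to -0.29 for TBC1D4. Those calls were lost in 2, 1 and 1 of 24 alternatives. DENND5B was called lower at 6 h as well, at -0.66 to -0.23, a call lost in 5 of 24. TRIO, a guanine nucleotide exchange factor, fell by 0.34 at 2 h and rose by 0.39 from 2 h to 24 h, the latter only with the run term. RAPGEF1, a Rap1 exchange factor, was called lower at 2 h, at -0.24 to -0.15 over the alternatives, a call lost in 12 of 24. Later it was at -0.61 at 6 h and -0.43 at 24 h. Its further fall from 2 h to 6 h was called, at -0.47 to -0.37, and lost in 5 of 23 alternatives. From 2 h to 24 h no change of RAPGEF1 was called.

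Of 27 long cytoskeletal and motor genes 16 fell (59.3%, beside 50.9% of all long genes) and 1 rose at 2 h, 8 fell and 5 rose at 6 h, and 7 fell and 3 rose at 24 h, with medians of -0.18, -0.02 and -0.08. PARD3, a scaffold of cell polarity, held 700 to 856 CPM untreated with a median of 742, 518, 599 and 587 at 2 h, 483 to 526 at 6 h, and 550 in both 24 h libraries. It fell by 0.44, 0.57 and 0.48. SVIL, an actin-binding villin relative, fell by 0.61 at 2 h and 0.51 at 6 h, and FMNL2, a formin, by 0.52 at 2 h. SVIL was also called lower at 24 h, at -0.61 to -0.43 over the alternatives, and FMNL2 at 6 h, at -0.32 to -0.15. Those calls were lost in 1 and 5 of 24 alternatives. Of 29 long membrane traffic genes 11 fell (37.9%) and 1 rose at 2 h, 3 fell and 6 rose at 6 h, and 2 fell and 4 rose at 24 h, with medians of -0.11, 0.04 and -0.03. LYST, a lysosomal traffic regulator, fell by 0.46 and 0.43 at 2 h and 6 h with the run term only. LYST was also called lower at 24 h, a change that turned positive without the run term. VPS8, an endosomal tethering subunit, rose by 0.41 at 24 h.

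Of 18 long ubiquitin and proteolysis genes 11 fell at 2 h (61.1%, beside 50.9% of all long genes), 5 at 6 h and 4 at 24 h, and 0 rose at any of the 3 times, with medians of -0.23, -0.09 and -0.17. UBE2E2, a ubiquitin-conjugating enzyme, fell by 0.58 and 0.42 at 2 h and 6 h, RNF216, a ubiquitin ligase, by 0.38 and 0.39, and NEDD4L, a HECT ligase, by 0.47 at 6 h. NEDD4L had already been called lower at 2 h, at -0.45 to -0.36 over the alternatives, a call lost only without the run term. UBE2E2, RNF216 and NEDD4L were also called lower at 24 h. Their values there were -0.54 to -0.38, -0.31 to -0.24 and -0.65 to -0.43 over the alternatives. Those calls were lost in 3, 3 and 1 of 24 alternatives. Of 20 RNA-binding, splicing and repair genes 10 fell at 2 h (50%) and 0 rose, with a median of -0.15. MSI2, an RNA-binding translation regulator of blood stem cells, fell by 0.39 and 0.34 at 2 h and 6 h and had a value of -0.08 at 24 h. R3HDM1 fell by 0.37 and 0.32, and RBFOX2, a splicing factor, by 0.32 at 6 h. RBFOX2 had already been called lower at 2 h, at -0.37 to -0.27 over the alternatives, a call lost only without the run term. R3HDM1 and RBFOX2 were called lower at 24 h as well, at -0.46 to -0.37 and -0.40 to -0.27, each call lost in 1 of 24 alternatives. Of 14 receptors, adhesion molecules and channels 8 fell (57.1%) and 2 rose at 2 h, with a median of -0.25. APP, the amyloid precursor, fell by 0.41 and 0.34 at 2 h and 6 h, and IGF1R, the insulin-like growth factor receptor, by 0.36 at 2 h. APP was called lower at 24 h too, at -0.35 to -0.27 over the alternatives, a call lost in 1 of 24. The 404 long genes on no list had 188 falls and 29 rises at 2 h, with a median of -0.16.

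Genes at common fragile sites include the longest. Of 21 long members 8 fell (38.1%, beside 50.9% of all long genes) and 0 rose at 2 h, 9 fell and 3 rose at 6 h, and 7 fell and 2 rose at 24 h, with a 2 h median of -0.16. FHIT (chr3:59735036-61237133, hg19), a nucleotide hydrolase and the longest gene measured at 1502.1 kb, held 488 to 607 CPM untreated with a median of 565. At 2 h it held 374 in run 1 and 563 and 515 in run 2, at 6 h 476, 478, 402 and 418, and at 24 h 453 and 459. The untreated and 2 h groups overlapped, and the others did not. FHIT changed by -0.29 (adjusted p 0.00786), -0.35 (0.00323) and -0.45 (0.00381, edgeR), and the 2 h value was -0.15 and failed the test without the 2 h library of run 1. Without the run term the 2 h and 24 h changes of FHIT did not pass, at -0.20 (adjusted p 0.277) and -0.28 (0.203). IMMP2L, an inner membrane peptidase of mitochondria, fell by 0.44 at 6 h and 0.62 at 24 h. IMMP2L was also called lower at 2 h, at -0.37 to -0.11 over the alternatives, a call lost in 7 of 24. WWOX, an oxidoreductase 1113.2 kb long, had values of -0.01 and 0.03 at 2 h and 6 h. At 24 h WWOX fell by 0.22 (adjusted p 0.0338, edgeR), a call lost in 7 of 24 alternatives. It was -0.17 without the run term, and -0.22 without either 24 h library or without library A at 0 h, B at 2 h or B at 6 h of run 2. VPS13B, a lipid transfer protein of 864.3 kb, passed the test at no time (-0.17 at 2 h).

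DIAPH2 (chrX:95939662-96855597, hg19), a formin of 915.9 kb, fell in the gene body and near its promoter. The gene body held 703 to 1108 CPM untreated with a median of 899, 632, 749 and 703 at 2 h, 633, 624, 455 and 487 at 6 h, and 550 and 560 at 24 h, with overlap between untreated and 2 h libraries. Its change was -0.45, -0.59 and -0.77 (adjusted p 0.000994, 0.000181 and 0.000202, edgeR), the first only with the run term. Near the promoter the untreated libraries held 132, 91.8, 88.7, 86.7 and 58.9 CPM, the 2 h libraries 50.4, 36.4 and 39.1, the 6 h libraries 36.5, 32.8, 23.4 and 27.2, and the 24 h libraries 32.1 and 26.8. No treated library reached the lowest untreated one. The change there was -1.17 ± 0.19, -1.29 ± 0.19 and -1.55 ± 0.25 (0.00307, 0.00222 and 0.00496), with an adjusted p of 0.079 or 0.084 at 24 h without one or the other 24 h library and 0.12 at 2 h without the run term. DNAH14, an axonemal dynein heavy chain, fell by 0.44, 0.75 and 0.94 in the gene body.

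Near promoters few long genes passed the test. At 2 h 7 of 614 rose and 18 fell, where 2.43% of all 9980 transcripts rose and 2.17% fell, 4.61% in all. At 6 h 6 rose and 10 fell (all transcripts 0.802% and 1.44%, 2.24% in all), and at 24 h 6 rose and 6 fell (0.631% and 0.782%, 1.41% in all). The median at 2 h was -0.06. An unadjusted p under 0.05 was found at 125 of the 614 long genes and at a similar share of all transcripts, 2143 of 9980 (edgeR). From 2 h to 6 h and to 24 h 0 passed in edgeR, as over all transcripts. An unadjusted p under 0.05 was found at 46 and 33 long genes, and at similar shares of all 9980 transcripts, 719 and 497. Long genes had a median of 106 promoter-proximal reads per library, which limits what could be detected. The promoter-proximal minus gene-body difference, tested with limma, rose at 7 and fell at 1 of 614 at 2 h, against 0.441% and 0.711% of all transcripts, 1.15% in all. Its median was 0.11, beside -0.03 for shorter coding genes and 0.04 for those of equal total reads. At 6 h 1 rose and 2 fell (0.15% and 0.24%, 0.391% in all), and at 24 h 1 rose and 1 fell (0.0701% and 0.18%, 0.251% in all).

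RALGAPA1, a subunit of the Ral GTPase-activating complex, held 49.4 to 65.9 CPM near its promoter untreated with a median of 60.6, 32.8, 27.9 and 28.2 at 2 h, 26.2 to 29.9 at 6 h, and 15.5 and 16.8 at 24 h. No treated library overlapped the untreated ones, and the change was -1.004, -1.03 and -1.85 (adjusted p 0.00862, 0.00827 and 0.00205, edgeR) while its gene body passed at no time. These calls failed without the run term at 2 h, without either 6 h library of run 2 at 6 h (adjusted p 0.062 and 0.082) and without library A at 24 h (0.072). TSNARE1, a SNARE-domain protein, held 58.5 to 78.3 CPM untreated and 23.7 to 26.8 at 6 h, a change of -1.40 (0.00222) that held in every alternative.

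CSNK1G1, a casein kinase, was higher near its promoter. Untreated libraries held 85.4, 110, 50.7, 37.7 and 90.8 CPM, and the 2 h libraries 184, 152 and 152, above all of them. The 2 h change was 1.39 ± 0.22 (adjusted p 0.00205, edgeR) and failed only without the run term. KCNIP1 (chr5:169780881-170163636, hg19), a calcium-binding partner of potassium channels, held 20.8, 28.6, 13.6, 11.3 and 20.0 CPM untreated, 44.8, 26.7 and 40.3 at 2 h, 26.0 to 42.8 at 6 h, and 53.2 and 33.6 at 24 h. The untreated group overlapped the 2 h and 6 h groups through 1 library of run 1. The changes were 1.11 ± 0.25, 1.08 and 1.55 ± 0.31 (0.0187, 0.0319 and 0.0169). The 2 h change of KCNIP1 failed without either untreated library of run 2, without library B of run 1 at 2 h, where it was 1.29, or without library B of run 2 at 2 h, where it was 0.89. At 6 h it failed without either untreated library of run 2, the untreated library of run 3, either 6 h library of run 2 or library B of run 3, where it was 0.97 to 1.28. At 24 h it failed without either untreated library of run 2 or without library A of 24 h, where it was 1.19 to 1.49. Without the run term the promoter-proximal change of KCNIP1 passed at none of the 3 times. The gene body of KCNIP1 was called lower at 2 h, at -0.28 to -0.04 over the alternatives, a call lost in 15 of 24. It was called higher at 24 h, at 0.12 to 0.58, and from 2 h to 24 h, both calls lost only without the run term. A gene-body rise from 2 h to 6 h was lost in 12 of 23 alternatives and changed sign in 1. Of 47 promoter-proximal or difference calls of the named long genes, 2 held in every alternative, beside 109 of 230 gene-body calls.

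By chromosome, 12 of 15 long genes on X (80%) and 22 of 33 on chromosome 4 (66.7%) fell at 2 h, against 4 of 16 on chromosome 18 (25%) and 14 of 39 on chromosome 10 (35.9%), where 8 rose. Of all long genes 50.9% fell, and of all transcripts 18.9%. The share over all transcripts of each chromosome was not computed, and no chromosome was tested against the others. The chromosomes named are the extremes among those with at least 10 long genes. The authors' deposited table gives 335 falls and 35 rises among the long genes at 2 h, 173 and 82 at 6 h, and 122 and 68 at 24 h in gene bodies. Of these, 326 falls and 34 rises at 2 h were called the same way in the authors' deposited table and in the edgeR model. Of shorter coding genes 18.8%, 13.9% and 10.4% fell in the deposited gene-body values. Near promoters the deposited values give 5 falls and 1 rise among long genes at 2 h, 6 and 0 at 6 h, and 2 and 0 at 24 h. Of shorter coding genes 0.62%, 0.88% and 0.31% fell there. The edgeR rises near promoters at 6 h and 24 h, such as those of RSF1 and KCNIP1, are thus not called in the deposited values.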

How the data were processed

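PRO-seq was measured in 16 samples, of which the 14 libraries of the tagged line were used. Per the submitters' processing notes, the authors used Bowtie2 2.2.2 with hg19, Trimmomatic 0.32, HOMER, SAMtools, DESeq2 and DESeq. Not given in the sources used here are the tool that counted reads, the windows' limits, the strand counted and any earlier filter, so overlapping genes cannot be separated. The 6 deposited tables hold raw read counts per RefSeq transcript made by the authors for each library, the authors' deposited log2 fold changes with standard errors, and the authors' deposited p-values. The deposited mean signal and Wald score and the 84 normalized columns were not used. Column names give time, a letter and a run but not the replicate number of the labels, and the text names a library by that letter and run.

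Counts were fitted in R 4.3.3 with edgeR 4.0.16 (filterByExpr, 10304 transcripts in gene bodies and 9980 near promoters; TMM; quasi-likelihood test with a coefficient per time and a run term over 14 libraries). Tests compared the 3 treated times with 0 h and both later times with 2 h. Benjamini-Hochberg adjustment ran over all transcripts, and 0.05 was the threshold. The promoter-proximal minus gene-body difference of log2 CPM (prior count 2) was tested with limma 3.58.1. DESeq2 1.42.0 served as an alternative. The edgeR and limma steps were tested on simulated data. At low promoter-proximal counts the limma step found few of the known changes in a first try, and the simulated set was then moved to higher counts, so few calls there do not show an absence of change. A fit of DESeq2 with the run term gave gene-body fold changes within 6.03e-09 of those in the authors' deposited table, whereas those near promoters differed by a median of 0.149 to 0.236. Each library's depth is the precision behind its values, and the 2 libraries of 24 h give the least replication.

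The members, the gene lists, the run term and the tests were chosen with earlier results of these data known. Among long genes with a mean count of at least 100, the named genes were the 6 largest called rises and falls per time with the same sign in every run, up to 6 per direction called at all 3 times, and the 4 largest calls per time and direction near promoters and in the difference. The 6 longest, the 6 densest, up to 4 per gene list, and RUNX1 were added, 87 in all. The lists were haematopoietic and developmental transcription factors, chromatin regulators, kinases and second messenger enzymes, small GTPase regulators, membrane traffic, cytoskeleton, common fragile sites, receptors and channels, ubiquitin and proteolysis, and RNA binding and repair. Genes printed by library, and the promoters shown, were picked from these after their values were seen. RefSeq promoter windows (GRCh38.p14) were matched by accession for 636 members, listed for 546 and kept for 429, where the transcript length fitted within 2%.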

Additional observations from a re-analysis of the deposited data

Results flagged for a closer look

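PRKCB was measured at 659 CPM in the untreated library of run 3, far below the other untreated libraries. It was the single such value in 36 groups of 4 or 5 libraries examined, where chance gives about 1 in 20 groups.

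The change from 2 h to a later time passed edgeR's quasi-likelihood test of that difference in several of the genes shown by library. For PRKCB it was 0.49 from 2 h to 6 h (adjusted p 0.00344) and 0.84 from 2 h to 24 h, on the log2 scale. For DNAJC1 it was 0.70 to 6 h (0.0126) and 1.02 to 24 h. For VAV3 it was 0.49 to 6 h (0.0471) and 0.62 to 24 h (0.0108). TOX changed by 0.83 to 24 h (0.0354) and ADAM12 by 0.84 (0.041). The 24 h differences of PRKCB and DNAJC1 held in every alternative. The 6 h difference of PRKCB failed without the run term and without library B of run 2 at 6 h (0.51, adjusted p 0.057). The 24 h difference of VAV3 failed without the run term and without either 24 h library, and the remaining ones failed in 5 to 13 of 23 alternatives, each of which includes the fit without the run term and the fits without either 6 h library of run 2 or, for 24 h, without either 24 h library.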

How the results depend on the processing

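The column names carry letters that are not tied to the replicate numbers of the labels. With the letter within each run as a replicate block, run on counts and medians and not on single genes, 44.1% fell and 4.69% rose at 2 h, 0.625% changed from 2 h to 6 h, and 0.161%, 0 and 0.642% of differences at 2, 6 and 24 h. The correlation of the A minus B difference in run 2 between times was -0.068 to 0.13 over the 6 pairs of times. The block, matching over all libraries and leaving out both untreated libraries of run 1 were chosen after seeing the data, as was merging both directions for the smaller counts. All-gene medians moved by at most 0.02 under other scalings. Shares called in these fits are of long genes, and the shares over all transcripts in the same fits are not given. Without the run term, the long genes that fell at 2 h came to 20.8% and those that rose to 1.09%, those at 24 h to 8.59% and 5.16%, and those changed from 2 h to 6 h to 0 and to 24 h to 2.5%. Near promoters that fit called 0, 1.47% and 0.489% at 2, 6 and 24 h, and of the difference 0 at 2 h and 0.163% at 24 h. With only the groups compared in the model, 31.6% fell and 1.88% rose at 2 h, 20% rose at 6 h, and 36.9% fell and 22.7% rose at 24 h, with 1.65%, 4.1% and 8.66% near promoters and 0, 0.82% and 1.02% of differences. With an adjusted p under 0.01, 33.9% fell and 2.19% rose at 2 h, 14.5% and 6.56% at 6 h, and 9.53% and 5.47% at 24 h. The later changes came to 0.781% and 6.56%, those near promoters to 0.814%, 0.651% and 0.326%, and the differences to 0 at each time. In run 2 alone 22.3% rose at 6 h, 34.1% fell and 20.8% rose at 24 h, 44.2% and 45.2% changed from 2 h to 6 h and 24 h, 14.2%, 9.72% and 15.7% changed near promoters, and 4.52%, 1.51% and 5.36% of differences. Without both untreated libraries of run 1, 20.9% rose at 6 h, 15.8% at 24 h, 20.2% and 29.4% changed from 2 h, 4.53% changed near promoters at 6 h and at 24 h, and 0.485%, 1.29% and 0.971% of differences. DESeq2 with the run term gave 17.7% from 2 h to 6 h, and 6.72% and 3.44% near promoters at 2 h and 24 h. A promoter-proximal mean count of at least 100 gave 6.44% there at 2 h, and 2.45%, 0.92% and 0.613% of differences. A prior count of 0.5 gave 0.651% of differences at 2 h, no filter 0.312% at 6 h. A threshold of 100 kb gave 5.87% from 2 h to 6 h and one of 200 kb 0.274% of differences at 6 h. Matched on total reads, long minus matched medians were -0.030 at 2 h, 0.057 at 6 h and 0.022 at 24 h, and over all libraries -0.057, 0.037 and -0.0024, where matching on reads per kb gave -0.25, -0.12 and -0.13.

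Leaving out 1 library at a time, the share that fell at 2 h ran from 31.2% (without the 2 h library of run 1) to 54.1%, that rose from 2.97% to 6.41%, the median from -0.22 to -0.12 and long minus matched from -0.30 to -0.16. At 6 h these ran from 15.3% to 28.3%, 7.5% to 17.5%, -0.07 to -0.03 and -0.14 to -0.09, and at 24 h from 6.88% to 20.9%, 3.91% to 13%, -0.09 to -0.04 and -0.15 to -0.09. From 2 h to 6 h the share changed ran from 0 to 12.7%, its median from 0.09 to 0.17 and long minus matched from 0.07 to 0.18. From 2 h to 24 h they ran from 4.38% to 22.8%, 0.06 to 0.14 and 0.07 to 0.15. Near promoters the ranges were 0.98% to 7.2%, 0.325% to 4.1% and 0 to 3.93% at 2, 6 and 24 h, and for the differences 0 to 1.8%, 0 to 0.818% and 0 to 0.82%. A fit that leaves 1 library at 24 h assumes that it varies like the others. Of 277 calls of named genes 111 held in every alternative, 166 were lost in at least 1 and 3 changed sign: LYST in the gene body at 24 h (0.051 without the run term), KCNIP1 from 2 h to 6 h (-0.12 without the run term) and ADAM12 at 2 h (-0.0026 in run 2 alone). The causes were not tested, other than fewer libraries or a stricter threshold by construction.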
